A study of Saccharomyces cerevisiae and Saccharomyces paradoxus and Saccharomyces mikatae with 10 samples.

Results

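BC187 is a wine strain of the budding yeast Saccharomyces cerevisiae, isolated, per the labels, from a barrel fermentation in Napa Valley, California. Its messenger RNA was set beside that of the other 5 strains of its species in the series: YPS606 (wild, from an oak tree), DBVPG1788 (wild, from soil), DBVPG6040 (fruit juice), Y9 (distillery, from ragi) and YJM145 (clinical). BC187 supplied 1 of the 10 sequenced samples and 1 of the 9 strain columns of the authors' table, chosen by its strain label. The other S. cerevisiae strains supplied 6 samples and 5 columns, because the authors joined the 2 libraries of YPS606 into 1 column. S. paradoxus strains N17 and N44 and S. mikatae strain IFO1815, all labelled wild, are used only as values beside those of BC187. Every strain was grown at 30 °C in a medium that imitates oak sap, with sucrose at 1%, fructose and glucose at 0.5% each, yeast extract at 0.1% and peptone at 0.15%. The cultures were diluted to an optical density at 660 nm of 0.1 after 24 hours and harvested at 0.5, in exponential growth. The labels give no introduced allele and no treatment, and each strain began from a single colony. Each environment other than wild is represented by 1 strain, so the wine environment and the strain BC187 cannot be told apart. Ploidy is not given in the sources used here.

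Wine yeast ferments grape sugars to ethanol in the presence of sulfite, copper and falling supplies of nitrogen. Saccharomyces cerevisiae prefers fermentation while sugar is plentiful, and represses respiration and the use of other carbon sources at that time. Strains of the species differ in the expression of transporters, stress genes and metabolic enzymes, and promoter elements recognised by factors such as Pho4, Rpn4 and the Hap complex are known to set the level of whole groups of genes.

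The values were treated as FPKM, a count of fragments divided by the length of the gene and by the size of the library. This unit was inferred from the data. Differences are given as log2(value + 1) of BC187 minus the mean of log2(value + 1) over the other 5 strains, called the log2 difference below. This scale understates the change of genes with low values. A gene is described as above or below the other 5 where BC187 lay outside their range, and the distance beyond the nearest strain is called the gap. Of 4325 genes, 4315 had a value in all 6 strains and 4267 of these had a mean of at least 1 and were tested. The low values implied library totals, in M (mega) reads, of 57.9 to 72.3, with 72.3 for BC187, and of 153 for the joined YPS606 column. The deposited values summed to between 451957 in YPS606 and 515524 in BC187. DBVPG6040 stood apart on chromosomes I and XI, where the median log2 difference of its genes from the other 5 strains was 0.80 and 0.74, against 0.09 to 0.19 on its other 14 chromosomes. In BC187 the chromosome medians lay between -0.19 and -0.02, so no chromosome was raised. Each strain had 1 value per gene, so the spread between cultures of BC187 is unknown, and p-values measure only the spread between strains. In a culture measured in bulk, a difference in every cell and a difference in the share of cells that express a gene cannot be told apart.

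Transcriptome-wide, BC187 was close to the other strains of its species. By 1 minus Spearman's rho across 4260 genes, its distance was 0.0305 to YPS606, 0.0368 to DBVPG1788, 0.0454 to YJM145, 0.0457 to Y9 and 0.0528 to DBVPG6040. The distances to N44, N17 and IFO1815 were 0.119, 0.132 and 0.214. The mean distance of BC187 to the other 5 was 0.0422 ± 0.00868 (SD over 5 strains), and the means of the other 5 strains ran from 0.0441 for YJM145 to 0.0595 for DBVPG6040. Measured by 1 minus Pearson's r, YJM145 had the lowest mean, 0.0387, and BC187 the next, 0.0403. Genes are not independent replicates, so these distances are a description.

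Counted gene by gene, BC187 lay outside the range of the other 5 for 1000 genes, 23.4% of those tested, with 402 above and 598 below. The same count was 25.3% for YJM145, 32.5% for Y9, 35.2% for DBVPG1788, 36.2% for YPS606 and 47.4% for DBVPG6040. The count of BC187 was the lowest of the 6, a difference that was not tested. At least 1 log2 unit beyond the range lay 10 genes in BC187, against 4 in YJM145, 10 in YPS606, 13 in DBVPG1788, 37 in Y9 and 51 in DBVPG6040. The median log2 difference over all genes was -0.06. With each strain centred on its own median, 592 genes lay above and 534 below, so the share above moved from 40.2% to 52.6%.

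**Figure D1:**
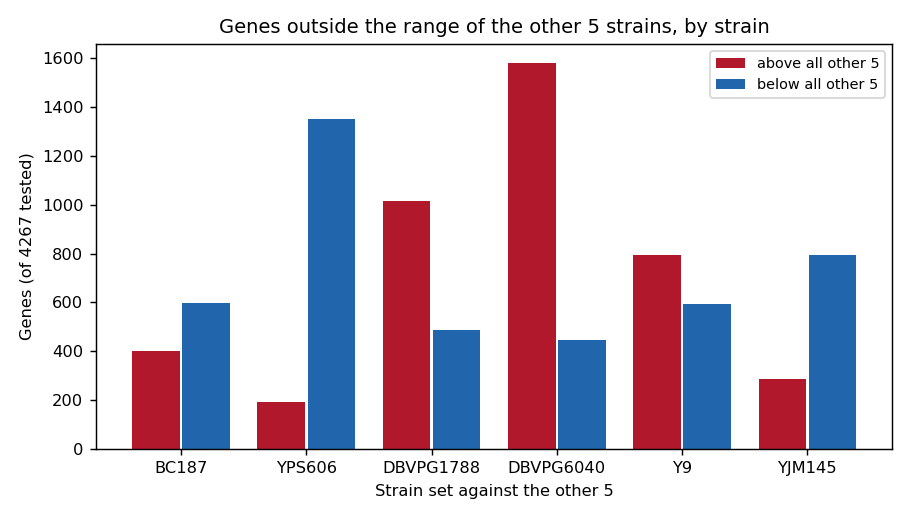
Number of genes, of 4267 tested, for which the strain named on the horizontal axis lay above all other 5 S. cerevisiae strains (red bars) or below all of them (blue bars). BC187 has 402 above and 598 below, the smallest total of the 6 strains, and DBVPG6040 the largest, with 1580 above and 444 below.

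A single gene passed the test of BC187 against the other 5 strains. YGR201C, annotated as an uncharacterized protein, rose in BC187 to the rank of 3 among all genes of that strain. The two-sided test of limma, with a mean-variance trend and Benjamini-Hochberg adjustment over 4267 genes, called 1 gene higher, 0.0234% of those tested, and 0 lower at an adjusted p under 0.05. At an unadjusted p under 0.05 there were 64 of 4267 genes in both directions. That share is smaller than the 0.05 that such a threshold passes on average when nothing differs. The fit takes the unknown spread of BC187 to be that among the other 5 strains. An exact permutation test of 1 strain against 5 cannot give a p below 0.167. In simulated data with 200 changed genes, the same fit recovered 0.0% of changes of 1 log2 unit, 77.5% of changes of 2, and 97.0% of changes of 4. The adjustment is easier to pass when many genes change at once, so these shares overstate the recovery when few genes do. A gene that missed the threshold is therefore not shown to be alike in BC187 and the other strains.

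**Figure D2:**
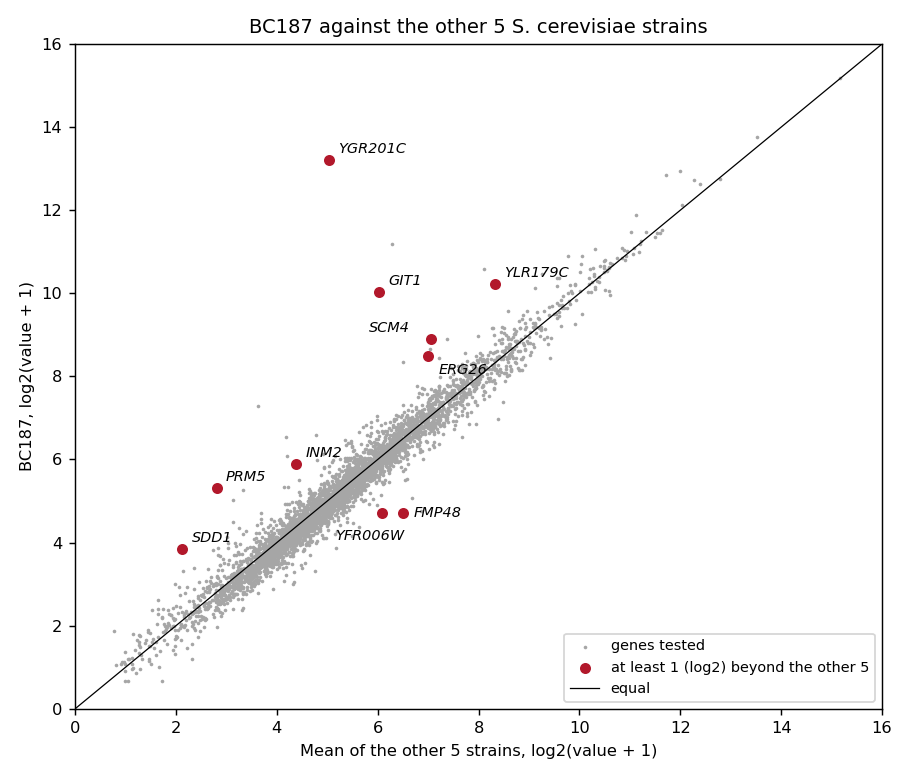
Level of each of 4267 genes in BC187 (vertical axis) against the mean of the other 5 S. cerevisiae strains (horizontal axis), both as log2(value + 1), with the line of equality. Red points are the 10 genes that lie at least 1 log2 unit beyond the range of the other 5, of which YGR201C stands 8.16 above the mean of the others.

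YGR201C lies on chromosome VII at 902520 to 903197 of the R64 reference, on the minus strand. Its values were 9426 in BC187, 32.4 in YPS606, 21.3 in DBVPG1788, 24.4 in DBVPG6040, 45.9 in Y9 and 42.96 in YJM145. The other 5 strains averaged 33.4 ± 10.9 (SD, n = 5), and BC187 stood at 282 times that mean, with no overlap. The log2 difference was 8.16 (SE 0.42), with an adjusted p of 9.58e-05 by limma. In BC187 the gene took 1.83% of the summed values, a level that implies about 461993 reads. N17 and N44 had 49.6 and 19.9, and the gene is listed at 0 in IFO1815. Over 16 alternative settings, among them each other strain left out in turn, the log2 difference ran from 7.86 to 8.29 and the adjusted p from 6.31e-05 to 0.00182. Its neighbours did not share the level. PCT1, an enzyme gene of phosphatidylcholine synthesis on the same strand whose 3′ end lies 276 bases upstream, was 95.7 in BC187 against 83.2 to 109 in the other 5. ELP2, an Elongator subunit, was 28.4 in BC187 against 24.2 to 35.7 in the other 5, and PMT6, a protein O-mannosyltransferase, was 18.8 in BC187 against 17.2 to 26.7 in the other 5.

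The reference promoter of YGR201C is printed because this is the only gene that passed the test. It was read from the R64 reference genome (strain S288C, RefSeq), not from BC187, over the window from 300 to 51 bases before the start codon, 5′ to 3′ on the strand of the gene. The first bases of the window overlap the neighbour PCT1. Capitals mark the 2 matches to AGGGG on either strand, the stress element bound by Msn2 and Msn4. At least 1 match was held by 19.6% of 4235 promoter windows. The window of YGR201C also held 1 match to the Hap element CCAAT, which is not marked, and none to the other motifs searched.
YGR201C (chrVII:903248-903497, minus strand): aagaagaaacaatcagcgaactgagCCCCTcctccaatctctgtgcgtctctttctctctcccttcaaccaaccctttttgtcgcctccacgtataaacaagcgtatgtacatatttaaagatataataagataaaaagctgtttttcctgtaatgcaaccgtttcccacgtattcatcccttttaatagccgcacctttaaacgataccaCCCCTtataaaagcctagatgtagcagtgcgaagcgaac

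GIT1 had the next widest gap. It encodes a plasma membrane transporter of glycerophosphoinositol and glycerophosphocholine, and its transcription is known to respond to phosphate supply. GIT1 (chromosome III, 297049 to 298605, R64) was 1043 in BC187, 158 in YPS606, 40.96 in DBVPG1788, 160.5 in DBVPG6040, 12.6 in Y9 and 81.7 in YJM145. BC187 lay above every other strain by a gap of 2.69, but the other 5 themselves spread widely, and the log2 difference of 3.99 (SE 1.15) did not pass the test. Its reference promoter, printed for comparison with YGR201C, held no match to AGGGG or to the Pho4 element CACGTG in the same window.
GIT1 (chrIII:298656-298905, minus strand): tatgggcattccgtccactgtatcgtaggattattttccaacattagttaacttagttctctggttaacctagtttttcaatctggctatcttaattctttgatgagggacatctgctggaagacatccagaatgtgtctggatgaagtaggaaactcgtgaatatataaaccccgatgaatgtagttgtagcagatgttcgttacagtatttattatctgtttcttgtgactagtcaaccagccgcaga

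Including YGR201C, 8 genes lay above all other 5 by a gap of at least 1 (0.187% of those tested), and 2 lay below by as much (0.0469%). With quantile normalisation or with strains centred on their medians these counts were 13 above and 0 below, and with the trend on gene length or on GC content removed they were 11 and 0. PRM5, a pheromone-regulated membrane protein that is also induced in cell integrity signalling, was 38.8 in BC187, 4.92 in YPS606, 9.13 in DBVPG1788, 10.7 in DBVPG6040, 6.55 in Y9 and 2.205 in YJM145. SDD1, a gene named as a suppressor of a dominant allele of the mitochondrial carrier PET9, was 13.4 in BC187, 4.01 in YPS606, 2.94 in DBVPG1788, 3.12 in DBVPG6040, 3.93 in Y9 and 2.98 in YJM145. For SDD1 the other 5 strains lay close together at low values, and for both genes BC187 stood apart. YLR179C, an uncharacterized protein similar to Tfs1, was 1194 in BC187, 320.0 in YPS606, 458 in DBVPG1788, 292 in DBVPG6040, 239.6 in Y9 and 329 in YJM145. ERG26, a sterol dehydrogenase of ergosterol synthesis, was 358 in BC187, 131 in YPS606, 145 in DBVPG1788, 113 in DBVPG6040, 130.1 in Y9 and 115 in YJM145. The 5 values of ERG26 outside BC187 lay within a narrow band, and BC187 was 2.83 times their mean. INM2, an inositol monophosphatase, was 58.5 in BC187, 17.6 in YPS606, 23.4 in DBVPG1788, 19.5 in DBVPG6040, 18.5 in Y9 and 21.01 in YJM145. SCM4, a protein of the mitochondrial outer membrane, was 477 in BC187, 98.9 in YPS606, 206 in DBVPG1788, 168 in DBVPG6040, 90.8 in Y9 and 126 in YJM145. The log2 differences were 2.50 (SE 0.61) for PRM5, 1.72 (0.32) for SDD1, 1.89 (0.35) for YLR179C, 1.498 (0.26) for ERG26, 1.51 (0.25) for INM2 and 1.85 (0.44) for SCM4. None passed the test, and the adjusted p of limma was 0.479 for SDD1, YLR179C, ERG26 and INM2, the smallest after YGR201C.

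Next in width of gap were BNA2, the tryptophan dioxygenase of NAD synthesis, at 31.3 in BC187 against 5.27 to 15.5 in the other 5, and the uncharacterized YOR343C at 21.6 in BC187 against 4.45 to 10.7 in the other 5. MGP12, a mitochondrial protein, followed at 62.1 in BC187 against 21.3 to 33.3 in the other 5, and YSW1, needed for prospore membrane formation, at 8.88 in BC187 against 2.23 to 4.41 in the other 5. INM2 and MGP12 are divergent neighbours on chromosome IV with 419 bases between them, and both lay above the other 5. By at least 0.5, 28 genes lay above the other 5 (0.656%) and 13 below (0.305%). The only other adjacent pair with gaps of at least 0.5 in the same direction was RDL1 and RDL2 on chromosome XV, tandem genes for thiosulfate sulfurtransferases with 225 bases between them. RDL1 was 1528 in BC187, 46.8 in YPS606, 290.1 in DBVPG1788, 339 in DBVPG6040, 369 in Y9 and 903 in YJM145. RDL2 was 479 in BC187, 146 in YPS606, 146 in DBVPG1788, 145 in DBVPG6040, 131 in Y9 and 291 in YJM145. YJM145 was the nearest strain for both. The width of 0.5 was chosen after the values were seen, and no adjacent pair reached a gap of 1.

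On the low side, the widest gap was that of YFR006W, a putative X-Pro dipeptidase, with 25.03 in BC187, 61.7 in YPS606, 54.1 in DBVPG1788, 58.2 in DBVPG6040, 88.9 in Y9 and 77.4 in YJM145. FMP48, a protein kinase found with mitochondria, was 25.1 in BC187, 57.8 in YPS606, 53.6 in DBVPG1788, 124 in DBVPG6040, 91.2 in Y9 and 163 in YJM145. INH1, which inhibits the mitochondrial ATPase, was 114 in BC187 against 185 to 326 in the other 5. SUC2, the invertase that splits the sucrose of the medium outside the cell, was 32.6 in BC187, 90.5 in YPS606, 91.5 in DBVPG1788, 53.01 in DBVPG6040, 248 in Y9 and 96.5 in YJM145. BC187 had the lowest SUC2 of the 6 strains and Y9 the highest, and N17 and N44 had 885 and 208. The 8 genes that follow were GLG1, a glycogenin that primes glycogen, POT1 of peroxisomal fatty acid oxidation, the methyltransferase RKM5, the aldehyde dehydrogenase ALD4, the cytochrome oxidase subunit COX4, the outer mitochondrial membrane protein OM45, the mannosyltransferase KTR4 and YBR053C. Their gaps lay between 0.53 and 0.60. The lowest level among the 24 genes with the widest gaps was that of POT1 in BC187, 2.899, which implies about 263 reads.

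PRM5 had 172 and 31.6 in N17 and N44, SDD1 8.08 and 3.16, YLR179C 2926 and 659.6, ERG26 184 and 141, INM2 52.6 and 31.3, SCM4 121 and 99.9 and GIT1 59.3 and 12.7. For BNA2, YOR343C, MGP12 and YSW1 they were 19.6 and 3.66, 10.7 and 5.11, 51.5 and 37.8, and 10.7 and 12.4. On the low side they were 86.99 and 83.5 for YFR006W, 47.6 and 65.1 for FMP48, 271 and 42.98 for INH1, 27.9 and 33.8 for GLG1 and 17.6 and 10.3 for POT1. Of the 12 genes highest in BC187 by this measure, 5 were above the range of the other 5 S. cerevisiae strains in both S. paradoxus strains (PRM5, YLR179C, INM2, MGP12 and YSW1). Of all 4258 genes with a value in both S. paradoxus strains, 30.9% were above that range in both and 5.73% below it in both. Of the 12 lowest, 0 were below that range in both.

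**Figure D3:**
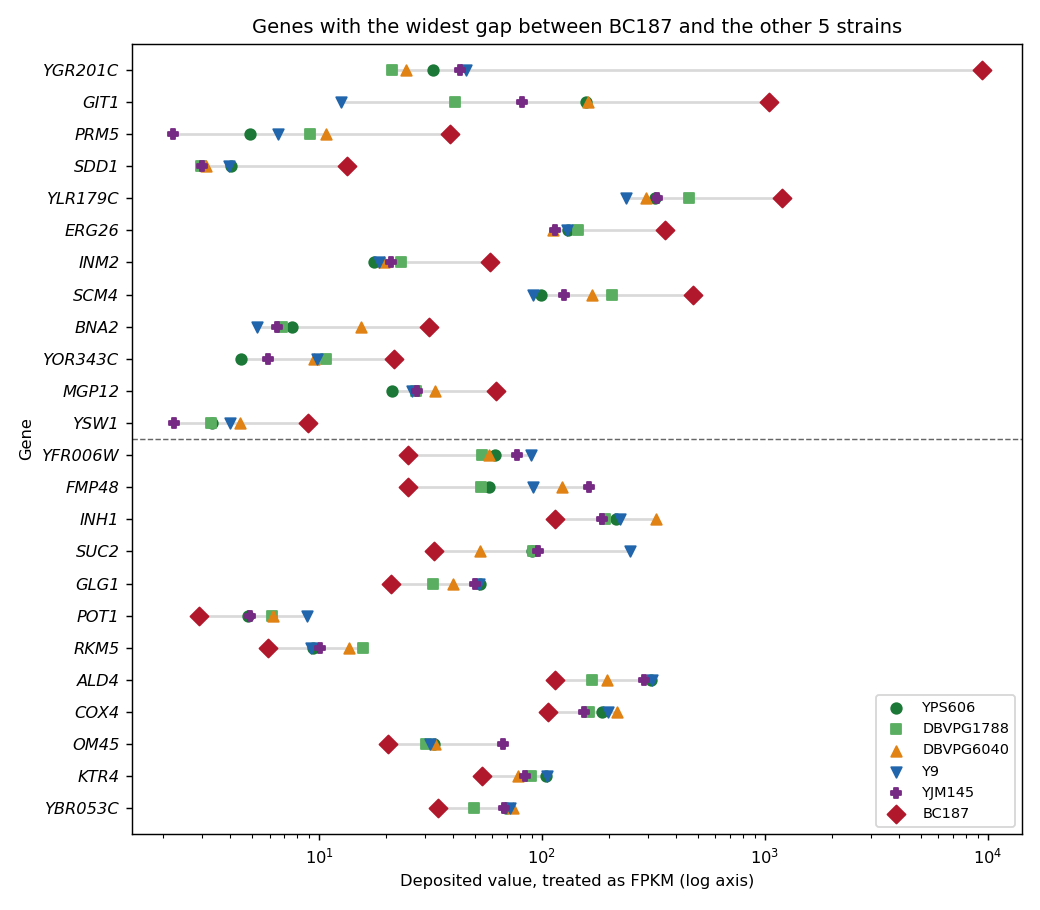
Deposited value of each strain (log axis) for the 12 genes with the widest gap above the other 5 strains (over the dashed line) and the 12 with the widest gap below them (under it). Red diamonds are BC187. For YGR201C BC187 is at 9426 and the other 5 strains lie between 21.3 and 45.9.

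Described by function, 37 gene lists had members among the genes tested. Since 1 gene passed the test, and no list holds it, each list had 0 called members in either direction, and lists are described by how many members lay above or below all other 5 strains. For all genes those shares were 9.42% above and 14.0% below. The log2 difference correlated with gene length across 4235 genes at a Spearman rho of -0.29, so longer genes tended to be lower in BC187, and with GC content at -0.04. The part of gene length in the counts below was addressed by removing its trend, and changes of over 1.5 times under any setting are given beside a printed list count where more than 1 member changed side, and beside a printed list median of at least 0.1 in size. The minimum mean of 10 is left out of this, since it tests fewer genes. Leaving a strain out narrows the range, so list counts cannot fall. Among 4267 genes, those above and below were 452 and 1068 without YPS606, 653 and 666 without DBVPG6040, and 423 and 669 without YJM145. They were 605 and 724 without DBVPG1788, 541 and 729 without Y9, 508 and 579 with quantile normalisation, and 592 and 534 with strains centred. Among 4235 genes, they were 561 and 457 with the length trend removed, and 627 and 584 with the GC trend removed.

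**Figure D4:**
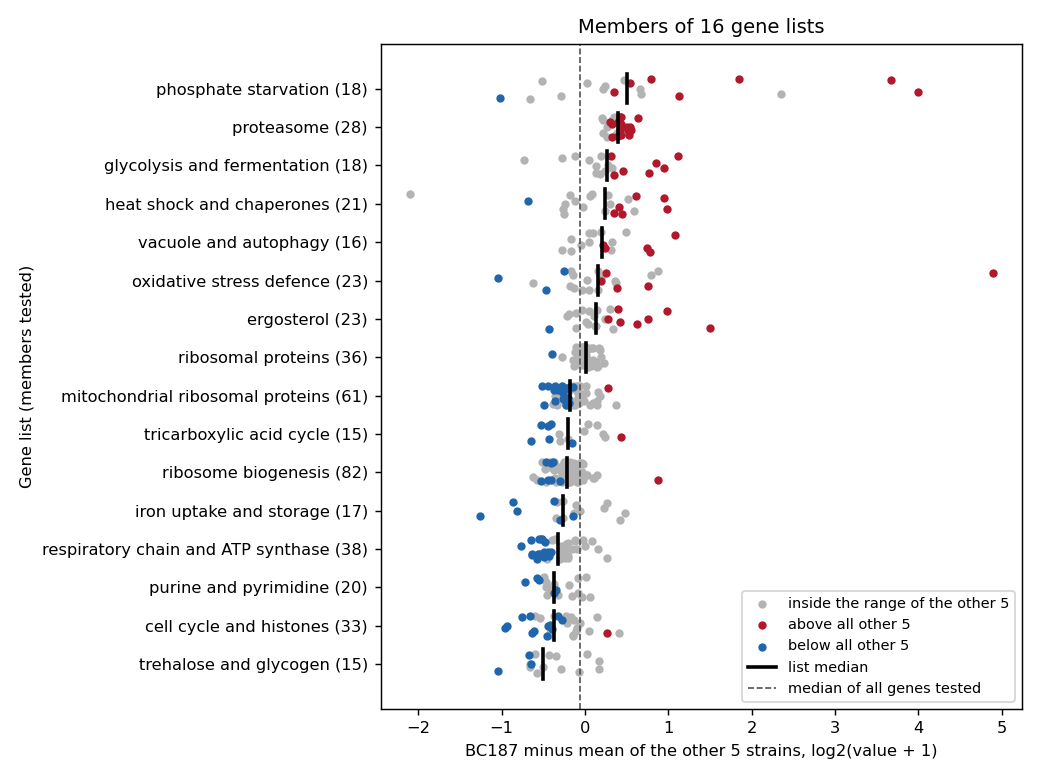
Log2 difference, BC187 minus the mean of the other 5 strains, of each member of 16 gene lists, with the number of members tested in brackets. Red points lie above all other 5 strains, blue points below all of them and grey points inside their range. Black bars are list medians, from 0.50 for phosphate starvation to -0.50 for trehalose and glycogen, and the dashed line is the median of all genes, -0.06.

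Phosphate starvation genes had the highest list median. In this pathway Pho4 switches on phosphate transporters, phosphatases and the vacuolar polyphosphate polymerase when phosphate is scarce. Of 18 members, 7 lay above all other 5 (38.9%) and 1 below, with a median log2 difference of 0.50. Among the 9 genes of uptake and phosphatases, 5 were above. GIT1, given earlier, led them. PHO89, a sodium-coupled phosphate transporter, was 155 in BC187, 123 in YPS606, 5.25 in DBVPG1788, 9.47 in DBVPG6040, 16.6 in Y9 and 0.933 in YJM145. YPS606 was close to BC187 for PHO89, and the other 4 strains were far lower. SPL2, a regulator of low-affinity transport, was 325 in BC187, 192 in YPS606, 64.97 in DBVPG1788, 275 in DBVPG6040, 23.5 in Y9 and 69.2 in YJM145. PHO84, the main high-affinity transporter, lay inside the range at 869 in BC187 against 445 to 1598 in the other 5. PPN1, a polyphosphatase, was the member below the others, at 44.7 in BC187 against 45.6 to 153 in the other 5. Without DBVPG6040, 12 members lay above and 2 below. The mean level of the list was highest in BC187, at 7.10 on the log2 scale, with 6.94 in DBVPG6040, 6.74 in YPS606 and 5.86 to 6.02 in DBVPG1788, Y9 and YJM145. PHO89 had 70.4 and 86.9 in N17 and N44, SPL2 106 and 96.1 and PPN1 158 and 149.8.

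The Pho4 element CACGTG, shared with Cbf1, was found in 7 of 18 promoter windows of this list (38.9%), against 3.45% of all 4235 windows. The reference sequences around it are shown for SPL2 and VTC1, which held it and lay above all other 5, with the element in capitals. PHO89 had no match in its window.
SPL2 (chrVIII:375217-375272, minus strand): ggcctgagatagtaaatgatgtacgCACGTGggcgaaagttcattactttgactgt
VTC1 (chrV:302624-302679, plus strand): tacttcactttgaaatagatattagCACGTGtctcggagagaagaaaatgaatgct
VTC1, a subunit of the polyphosphate polymerase, was 1910 in BC187 against 623 to 1675 in the other 5.

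Proteasome genes lay on the high side together. The proteasome is the protease that destroys ubiquitin-tagged proteins, built from a core particle and a regulatory particle, and its genes are activated by Rpn4. All 28 members tested were higher in BC187 than the mean of the other 5, with log2 differences from 0.21 to 0.63 and a median of 0.39. Above all other 5 lay 16 of 28 (57.1%), with 7 of 12 in the core particle and 9 of 15 in the regulatory particle, and 0 lay below. PRE1, a subunit of the core particle, was 315 in BC187, 191 in YPS606, 265 in DBVPG1788, 249 in DBVPG6040, 189.5 in Y9 and 145 in YJM145. The catalytic subunit PRE2 was 301 in BC187, 219 in YPS606, 239 in DBVPG1788, 217 in DBVPG6040, 193 in Y9 and 178 in YJM145. PRE3, another catalytic subunit, was 281 in BC187, 208 in YPS606, 243 in DBVPG1788, 226 in DBVPG6040, 163 in Y9 and 156 in YJM145. In all of these BC187 was highest and DBVPG1788 next. RPN4 itself lay inside the range, at 95.4 in BC187 against 56.8 to 96.7 in the other 5. The mean level of the list was 7.57 in BC187, 7.45 in DBVPG1788 and 6.95 to 7.33 in the other 4. With each strain centred on its median 25 members lay above, and 27 did with the trend on GC content removed. PRE1 had 242 and 181 in N17 and N44, PRE2 302 and 142 and PRE3 228 and 157.

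The Rpn4 element GGTGGCAAA, added to the search after the list was seen, was present in 22 of 28 proteasome windows (78.6%), against 1.18% of all windows. The reference sequences of the members with the widest gaps show it in capitals.
PRE1 (chrV:177668-177726, plus strand): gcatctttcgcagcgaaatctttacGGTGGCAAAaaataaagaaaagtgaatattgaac
PRE2 (chrXVI:732169-732227, plus strand): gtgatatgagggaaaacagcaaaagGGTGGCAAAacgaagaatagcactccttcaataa
PRE3 (chrX:435020-435078, plus strand): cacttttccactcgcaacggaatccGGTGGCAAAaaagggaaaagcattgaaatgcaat
Outside the proteasome list, 28 tested genes held the element. Of these 3 lay above all other 5 strains and 2 below, with a median log2 difference of 0.13. These shares, 10.7% and 7.14%, stand beside 9.42% and 14.0% for all genes, and the median beside -0.06 for all genes.

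**Figure D5:**
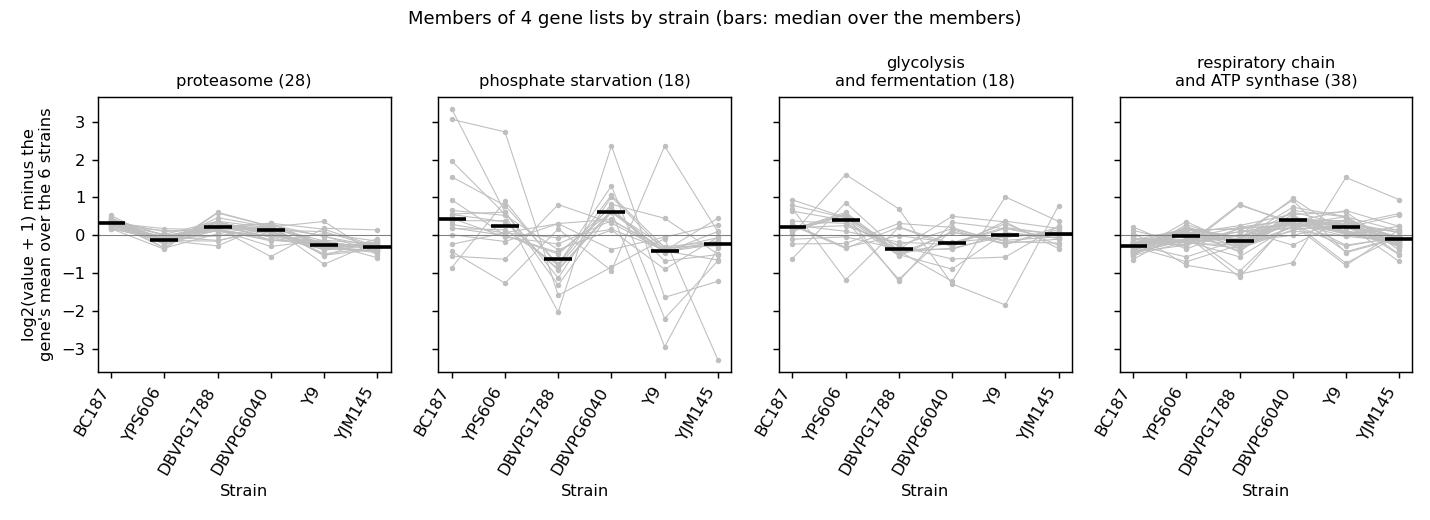
Log2(value + 1) of each member of 4 lists in each strain, minus the mean of that gene over the 6 strains (grey points joined by lines), with the median over the members as a black bar. The proteasome median is 0.33 in BC187 and 0.22 in DBVPG1788. For phosphate starvation DBVPG6040 has the highest median, 0.61, and BC187 has 0.42.

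Glycolysis and fermentation genes, which carry sugar to ethanol, also lay mostly on the high side. Of 18 members 7 were above all other 5 (38.9%) and 0 below, with a median of 0.26. TDH1, a glyceraldehyde-3-phosphate dehydrogenase, was 7364 in BC187, 5325 in YPS606, 2705 in DBVPG1788, 2077 in DBVPG6040, 4048 in Y9 and 3659 in YJM145. TDH2, its close homologue, was 7879 in BC187, 6260 in YPS606, 3716 in DBVPG1788, 2954 in DBVPG6040, 3060 in Y9 and 5382 in YJM145. TDH1, TDH2 and TDH3 are close homologues, TDH2 and TDH3 near-identical, so how reads were divided among them is uncertain. ADH2, the glucose-repressed alcohol dehydrogenase that oxidises ethanol, was 1901 in BC187, 515 in YPS606, 1350 in DBVPG1788, 945 in DBVPG6040, 1509 in Y9 and 1321 in YJM145, and it shares most of its sequence with ADH1. YPS606 had the nearest value for TDH1 and TDH2 and the lowest for ADH2. The list's mean level was 8.67 in YPS606 and 8.63 in BC187, so BC187 was not the highest strain for the list as a whole. Without YPS606, 12 members lay above, and with quantile normalisation the median was 0.16. TDH1 had 2616 and 1609 in N17 and N44, TDH2 3558 and 3732 and ADH2 21.9 and 17.7.

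Respiratory chain and ATP synthase genes were the counterpart on the low side. These complexes of the inner mitochondrial membrane pass electrons to oxygen and make ATP, and the Hap complex activates many of their genes. Of 38 members 0 lay above all other 5 and 16 below (42.1%), with a median of -0.33. The ATP synthase had 8 of 11 below, complex III 3 of 6, and cytochrome c with complex IV 3 of 11. The 4 genes of the Hap complex had 0 outside the range. COX4, a subunit of cytochrome c oxidase, was 106 in BC187, 186 in YPS606, 162 in DBVPG1788, 216 in DBVPG6040, 197 in Y9 and 155 in YJM145. ATP2, the beta subunit of the ATP synthase, was 618 in BC187, 1089 in YPS606, 800.2 in DBVPG1788, 895 in DBVPG6040, 1121 in Y9 and 951 in YJM145. COX5A, the oxygen-induced form of a cytochrome oxidase subunit, was 211 in BC187, 279 in YPS606, 343 in DBVPG1788, 391 in DBVPG6040, 312 in Y9 and 268 in YJM145. BC187 was lowest for each. The mean level of the list was 7.33 in BC187 and 7.46 to 7.96 in the other 5. With each strain centred on its median, BC187 ranked 5 of 6 for the list. COX4 had 383 and 138 in N17 and N44, ATP2 806 and 462 and COX5A 419 and 195.

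The Hap element CCAAT occurred in 31 of 38 windows of this list (81.6%), against 36.6% of all windows and 37.7% of the windows of genes below all other 5. It is shown in capitals for ATP2 and COX5A.
ATP2 (chrX:647397-647451, plus strand): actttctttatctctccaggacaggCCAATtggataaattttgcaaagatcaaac
COX5A (chrXIV:531530-531584, plus strand): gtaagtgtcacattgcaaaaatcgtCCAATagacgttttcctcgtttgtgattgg

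Other mitochondrial lists leaned the same way with less uniformity, and BC187 did not have the lowest mean level for either. For the tricarboxylic acid cycle the mean level was 7.32 in DBVPG1788 and 7.36 in BC187. For mitochondrial ribosomal proteins it was 6.29 in Y9 and 6.32 in BC187. In the tricarboxylic acid cycle, which oxidises acetyl groups, 6 of 15 members lay below (40%) and 1 above, with a median of -0.20. MDH1, malate dehydrogenase, was 339.9 in BC187 against 379.5 to 523 in the other 5, and KGD2 of the ketoglutarate dehydrogenase was 110.3 in BC187 against 123 to 179 in the other 5. IDH1, a subunit of isocitrate dehydrogenase, was the member above, at 287 in BC187 against 190.5 to 236 in the other 5. With the GC trend removed 2 members lay below. Mitochondrial ribosomal proteins had 17 of 61 below (27.9%) and 1 above, with a median of -0.18. PET123 was 48.01 in BC187 against 57.3 to 101 in the other 5, MRPS17 40.3 in BC187 against 45.3 to 56.5 in the other 5, MRP4 99.3 in BC187 against 111 to 169.7 in the other 5, and MRPL39, the member above, 173 in BC187 against 123 to 162 in the other 5. This count was not stable. It was 6 below and 4 above with strains centred on their medians, 8 below and 5 above with the GC trend removed, 30 below without Y9, and 6 above without DBVPG6040, where the median was -0.11. MDH1 had 520.3 and 260.4 in N17 and N44, KGD2 157 and 109.7, IDH1 237 and 122, PET123 174 and 115, MRPS17 82.7 and 65.1, MRP4 143 and 132 and MRPL39 319 and 197.

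Cell cycle and histone genes were low in BC187. Cyclins drive the phases of division, and ribonucleotide reductase makes the precursors of DNA. Of 33 members 12 lay below (36.4%) and 1 above, with a median of -0.37, and only 4 of 33 were higher than the mean of the other 5. CLB1, a mitotic cyclin, was 12.04 in BC187, 16.3 in YPS606, 18.6 in DBVPG1788, 46.1 in DBVPG6040, 20.04 in Y9 and 29.6 in YJM145. CLN1, a G1 cyclin, was 17.6 in BC187, 22.6 in YPS606, 29.3 in DBVPG1788, 67.9 in DBVPG6040, 24.5 in Y9 and 44.2 in YJM145. RNR1, the large subunit of ribonucleotide reductase, was 42.98 in BC187, 55.8 in YPS606, 67.9 in DBVPG1788, 136 in DBVPG6040, 53.1 in Y9 and 77.6 in YJM145. YPS606 was nearest to BC187 for CLB1 and CLN1 and Y9 for RNR1, and DBVPG6040 was highest for each. RNR3, the damage-induced form, was above the others at 6.11 in BC187 against 4.31 to 5.38 in the other 5. The mean level of the list was 4.67 in both BC187 and YPS606, so YPS606 was as low. With each strain centred on its median, BC187 ranked 6 of 6 for the list, the lowest. The list median was -0.19 without DBVPG6040 and -0.20 with the length trend removed. CLB1 had 64.2 and 50.3 in N17 and N44, CLN1 31.4 and 34.9, RNR1 76.3 and 90.3 and RNR3 34.1 and 7.39.

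Storage carbohydrate genes had the lowest list median, -0.50, over 15 members of trehalose and glycogen metabolism, with 3 below (20%) and 0 above. GLG1 was 21.1 in BC187, 52.6 in YPS606, 32.5 in DBVPG1788, 39.7 in DBVPG6040, 52.1 in Y9 and 49.8 in YJM145. TPS2 and TPS1, which make trehalose, were 184 in BC187 against 187 to 479 in the other 5 and 311 in BC187 against 317 to 719 in the other 5, each only just under the lowest strain. DBVPG1788 and DBVPG6040 were also low for the list, with mean levels of 6.11 and 6.09 against 6.12 in BC187, while YJM145, YPS606 and Y9 had 6.78 to 6.86. Removing DBVPG6040 gave 5 members below and a median of -0.76. With strains centred on their medians, or with the trend on gene length or GC content removed, 1 member lay below. Purine and pyrimidine genes had 5 of 20 below (25%) and 0 above, with a median of -0.37. URA2, which starts pyrimidine synthesis, was 131 in BC187 against 152 to 219 in the other 5, and ADE13 and ADE6 of purine synthesis were 324 in BC187 against 354 to 616 in the other 5 and 109.8 in BC187 against 119 to 161 in the other 5. YPS606 was lower than BC187 for the mean level of that list, 6.62 against 6.68. With each strain centred on its median, BC187 ranked 6 of 6 for the list, the lowest. Without YPS606 12 members lay below. Without chromosomes I and XI 3 did. TPS2 had 246 and 211 in N17 and N44, TPS1 519 and 347, URA2 95.3 and 192, ADE13 314 and 754 and ADE6 123 and 337.

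Iron uptake and storage genes had 6 of 17 below (35.3%) and 0 above, with a median of -0.26. The mean level of the list was 4.67 in YJM145, 4.75 in BC187 and 4.86 to 5.21 in the rest, so BC187 was not the lowest strain. FET3, the multicopper oxidase of high-affinity uptake, was 16.2 in BC187 against 17.9 to 58.98 in the other 5, AFT1, the activator of the iron regulon, was 30.6 in BC187 against 34.9 to 42.96 in the other 5, and FTH1, a vacuolar iron transporter, was 38.7 in BC187 against 43.5 to 58.95 in the other 5. The element of Aft1 and Aft2, TGCACCC, was in 7 of the 17 windows (41.2%) and in 0.945% of all windows. With the gene length trend removed, or with quantile normalisation, 3 members lay below. The median was -0.12 without Y9, -0.13 without YPS606 and -0.14 with the length trend removed, and 2 members lay above without DBVPG6040. FET3 had 14.3 and 7.505 in N17 and N44, AFT1 28.5 and 20.3 and FTH1 83.2 and 66.3.

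Ergosterol genes, whose products build the sterol of the yeast plasma membrane, had 7 of 23 above (30.4%) and 1 below, with a median of 0.13. ERG26, given earlier, led them. ERG28, a scaffold of the complex in which ERG26 works, was 503 in BC187, 260.2 in YPS606, 344 in DBVPG1788, 183 in DBVPG6040, 238 in Y9 and 264 in YJM145. ARE2, a sterol acyltransferase, was 253 in BC187, 170.0 in YPS606, 168 in DBVPG1788, 164 in DBVPG6040, 124 in Y9 and 127 in YJM145. Both lay above all other strains by a gap of over 0.5. ERG4, which completes the pathway, was 136 in BC187 against 137 to 255 in the other 5. All 8 genes of the mevalonate branch were higher than the mean of the other 5, and 2 of them were above the range. Without DBVPG1788, 11 members lay above. The median was 0.07 without YPS606, 0.08 without Y9, 0.21 without DBVPG1788 and 0.20 with the length trend removed. ERG28 had 411 and 577 in N17 and N44, ARE2 170.5 and 229.7 and ERG4 209.7 and 115.

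Fatty acid and phospholipid genes are given by role, with no test of the difference between roles. Of 16 phospholipid genes 4 lay above and 1 below, and of 10 genes of fatty acid synthesis 1 lay above and 3 below. INM1, an inositol monophosphatase like INM2, was 132 in BC187, 89.5 in YPS606, 51.8 in DBVPG1788, 61.6 in DBVPG6040, 51.3 in Y9 and 63.2 in YJM145. ACB1, which binds acyl-CoA, was 1161 in BC187 against 494 to 913 in the other 5, and EPT1, an ethanolaminephosphotransferase, was 158 in BC187 against 96.2 to 139.8 in the other 5. INO1, inositol-3-phosphate synthase, was 1409 in BC187, 654 in YPS606, 593 in DBVPG1788, 299 in DBVPG6040, 1370 in Y9 and 538 in YJM145, with Y9 close under BC187. FAS1, a fatty acid synthase subunit, was 430.3 in BC187 against 452 to 543 in the other 5, ELO2 164 in BC187 against 171 to 213 in the other 5, and the acyl-CoA synthetase FAA1 106 in BC187 against 109 to 183 in the other 5. With the trend on gene length or GC content removed, or with strains centred on their medians, 0 genes of the list lay below, and the log2 difference of FAS1 turned from -0.15 to 0.11 with the length trend removed. INM1 had 43.6 and 70.2 in N17 and N44, ACB1 947 and 627, EPT1 24.7 and 47.5, INO1 169 and 71.7, FAS1 216 and 393, ELO2 143 and 259 and FAA1 106 and 153.

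Stress genes gave mixed values. In oxidative stress defence 5 of 23 members lay above (21.7%) and 3 below, with a median of 0.15. YHB1, a flavohaemoglobin that detoxifies nitric oxide, was 2318 in BC187, 3.53 in YPS606, 1468 in DBVPG1788, 27.02 in DBVPG6040, 1673 in Y9 and 8.16 in YJM145. DBVPG1788 and Y9 had YHB1 at the level of BC187, and YPS606, DBVPG6040 and YJM145 were lower by a wide margin, so BC187 belonged to the upper 3 strains. AHP1, a peroxiredoxin, was 3759 in BC187, 1658 in YPS606, 2817 in DBVPG1788, 2504 in DBVPG6040, 1759 in Y9 and 2673 in YJM145. TRX3, a mitochondrial thioredoxin, was 126 in BC187 against 88.9 to 104 in the other 5. SRX1, which repairs peroxiredoxins, was 6.34 in BC187 against 8.04 to 21.8 in the other 5, TRR2 26.9 in BC187 against 30.6 to 35.7 in the other 5, and the regulator SKN7 52.6 in BC187 against 56.5 to 84.6 in the other 5. Without DBVPG6040, 11 members lay above, with strains centred 10, and with the length trend removed 8, and without DBVPG1788, 5 lay below. YHB1 had 197 and 23.7 in N17 and N44, AHP1 6128 and 3425, TRX3 159 and 67.9, SRX1 78.3 and 22.7, TRR2 36.2 and 18.4 and SKN7 79.00 and 69.6.

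Among heat shock and chaperone genes 6 of 21 lay above (28.6%) and 1 below, with a median of 0.24. The mean level of the list was 7.20 in DBVPG6040 and 6.91 in BC187, which ranked 2 of 6. CUR1, a factor that sorts misfolded proteins, was 67.3 in BC187, 33.5 in YPS606, 59.7 in DBVPG1788, 41.1 in DBVPG6040, 29.7 in Y9 and 19.9 in YJM145. FES1, a nucleotide exchange factor for Hsp70, was 117 in BC187 against 67.6 to 104 in the other 5, and HSP30, a plasma membrane heat shock protein, was 765 in BC187 against 128 to 734 in the other 5. UBI4, polyubiquitin, was 331 in BC187 against 163 to 309 in the other 5, and it shares its ubiquitin repeats with other genes, so its value is uncertain. MSN4, a stress activator, was 85.3 in BC187 against 101 to 261 in the other 5. HSP12, a small heat shock protein, had the lowest log2 difference of all genes tested, -2.10 (SE 2.02), but stayed inside the range, with 26.2 in BC187, 13.6 in YPS606, 29.7 in DBVPG1788, 178 in DBVPG6040, 1792 in Y9 and 149 in YJM145. Quantile normalisation left 3 members above, and the list median was 0.10 without Y9 and 0.14 without YJM145. The vacuole and autophagy list had 5 of 16 above (31.3%) and 0 below, with a median of 0.21. ATG17, a scaffold that starts autophagosomes, was 13.1 in BC187, 4.61 in YPS606, 6.65 in DBVPG1788, 6.75 in DBVPG6040, 6.17 in Y9 and 4.56 in YJM145, and its partner ATG29 was 21.2 in BC187 against 9.504 to 14.8 in the other 5. YPS3, an aspartic protease of the cell surface, was 117 in BC187 against 56.2 to 86.1 in the other 5. BC187 had the highest mean level of this list, 6.24, with 6.15 in Y9 next. With strains centred on their medians BC187 ranked 2 of 6 for it. Without DBVPG1788 2 members of the list lay below. CUR1 had 50.3 and 37.6 in N17 and N44, FES1 107 and 158, UBI4 634 and 178, MSN4 82.4 and 62.4, ATG17 20.2 and 10.9, ATG29 24.5 and 21.97 and YPS3 169 and 44.1.

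Genes tied to wine making come next. The sulfite pump gene SSU1, the metallothionein gene CUP1-1 and the water channel gene AQY2 were not analysed here. Of the 8 genes of copper and sulfite resistance, 0 lay outside the range and 6 were higher than the mean of the other 5, with a median of 0.19. The median was 0.09 without YPS606 and 0.11 without YJM145. The mean level of the list was 6.58 in DBVPG6040, 6.41 in DBVPG1788 and 6.40 in BC187, which ranked 3 of 6. With strains centred on their medians BC187 ranked 1 of 6. FZF1, the activator of the sulfite pump, was 14.4 in BC187, 9.83 in YPS606, 15.8 in DBVPG1788, 26.8 in DBVPG6040, 16.5 in Y9 and 11.5 in YJM145. Its log2 difference of -0.07 became 0.12 without DBVPG6040 and 0.0039 with quantile normalisation. In the galactose pathway 1 of 13 members was above and 0 below, with a median of -0.08. GAL3, the galactose sensor, was 7.45 in BC187, 4.32 in YPS606, 4.94 in DBVPG1788, 5.44 in DBVPG6040, 5.32 in Y9 and 5.28 in YJM145. With quantile normalisation or without DBVPG6040, 2 members lay below. GAL1, galactokinase, stayed inside the range at 4.25 in BC187 against 3.41 to 7.75 in the other 5. Among 12 genes of hexose transport and sugar sensing, HXK2, the main hexokinase, lay above at 1173 in BC187 against 614 to 1106 in the other 5, and HXT5, a transporter of slow growth, lay below with SUC2, at 14.7 in BC187 against 19.4 to 26.4 in the other 5. With the GC trend removed, 4 members of that list lay below. FZF1 had 12.99 and 3.05 in N17 and N44, GAL3 10.1 and 12.4, GAL1 7.75 and 10.6, HXK2 253 and 477 and HXT5 27.6 and 29.8.

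Of 13 genes for esters, fusel alcohols and phenolic aroma, 1 lay above and 3 below, with a median of -0.07, and without Y9 3 lay above. FDC1, the decarboxylase that makes volatile phenols from cinnamic acids, was 68.7 in BC187, 28.4 in YPS606, 28.9 in DBVPG1788, 31.5 in DBVPG6040, 15.9 in Y9 and 49.2 in YJM145. The aldehyde dehydrogenases ALD4, ALD3 and ALD6 lay below, at 114 in BC187 against 167 to 311 in the other 5, 7.36 in BC187 against 10.4 to 32.4 in the other 5 and 279.7 in BC187 against 307 to 627 in the other 5. Nitrogen scavenging genes had 3 of 26 above (11.5%) and 3 below, with a median of 0.02. DUR3, which imports urea and polyamines, was 37.3 in BC187, 5.53 in YPS606, 5.504 in DBVPG1788, 7.23 in DBVPG6040, 12.6 in Y9 and 21.2 in YJM145. The ammonium permeases MEP3 and MEP2 were 62.3 in BC187 against 24.3 to 48.5 in the other 5 and 22.7 in BC187 against 6.95 to 20.9 in the other 5. OPT1, an oligopeptide transporter, TAT2, a tryptophan permease, and CHA1, a serine deaminase, lay below, at 9.03 in BC187 against 10.6 to 62.7 in the other 5, 51.8 in BC187 against 57.9 to 77.7 in the other 5 and 10.4 in BC187 against 10.96 to 22.3 in the other 5. Without YPS606 or without Y9, 5 members of the nitrogen list lay above, and without YJM145 5 lay below. With quantile normalisation or the length trend removed 1 lay below. FDC1 had 94.9 and 61.8 in N17 and N44, ALD4 337 and 143, ALD3 39.4 and 19.7, ALD6 923 and 859.6, DUR3 9.72 and 8.29, MEP3 38.1 and 49.2, MEP2 18.4 and 9.09, OPT1 17.99 and 35.8, TAT2 65.6 and 128 and CHA1 12.2 and 9.27.

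Ribosomal protein genes had a median of 0.01, with 0 of 36 above and 1 below, RPS28B, at 355 in BC187 against 408 to 532 in the other 5. Many ribosomal protein genes have near-identical copies, so their values are uncertain. Without YPS606 5 members lay below, with quantile normalisation 3, and 2 lay above with strains centred or without Y9. Ribosome biogenesis genes had a median of -0.21, with 7 of 82 below (8.54%) and 1 above, and 6 of 82 were higher than the mean of the other 5. TIF6, BMS1 and UTP5 lay below, at 221 in BC187 against 243 to 322 in the other 5, 15.9 in BC187 against 17.5 to 28.9 in the other 5 and 47.02 in BC187 against 48.3 to 80.2 in the other 5, and RRP36 above, at 18.3 in BC187 against 4.83 to 15.2 in the other 5. That list turned on YPS606, the strain with the lowest mean level at 5.16 against 5.46 in BC187. Without it 48 of 82 members lay below, beside 1068 of all 4267 genes. With quantile normalisation 16 members lay below, beside 579 of all genes, and with strains centred on their medians 13, beside 534. The list median was -0.34 without YPS606 and -0.12 without DBVPG1788, and 3 members lay above without DBVPG1788. RPS28B had 335 and 534 in N17 and N44, TIF6 349.6 and 365, BMS1 39.3 and 53.3, UTP5 73.2 and 99.6 and RRP36 37.6 and 26.3.

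The state of the cultures was checked with 23 genes that are specific to a, alpha or haploid cells, which diploid cells repress. Their summed value was 146 in BC187 and 129 to 171 in the other 5 strains, with 0 of 23 listed at 0 in BC187. In N44 and N17 the same sum was 1151 and 4288. BC187 therefore did not differ from the other S. cerevisiae strains in this sum beyond their range. Among them ASG7, RME1 and BAR1 lay above, at 6.605 in BC187 against 2.94 to 4.51 in the other 5, 7.07 in BC187 against 1.68 to 5.36 in the other 5 and 4.09 in BC187 against 3.16 to 3.98 in the other 5, and STE12, SAG1 and SST2 below, at 9.48 in BC187 against 12.2 to 21.2 in the other 5, 15.9 in BC187 against 17.4 to 21.3 in the other 5 and 7.01 in BC187 against 7.65 to 18.8 in the other 5. Without YPS606, 7 of the 23 lay above. Meiosis and sporulation genes had 6 of 33 above (18.2%) and 1 below, all at low values. NDT80, the activator of middle sporulation genes, was 10.97 in BC187 against 6.33 to 8.96 in the other 5, REC104 7.23 in BC187 against 2.99 to 6.39 in the other 5, SPO20 2.397 in BC187 against 0.919 to 2.12 in the other 5, and SPS4, the member below, 1.29 in BC187 against 1.94 to 7.29 in the other 5. Without DBVPG1788 11 members lay above, and without Y9 10. ASG7 had 18.6 and 16.8 in N17 and N44, RME1 46.7 and 10.7, BAR1 76.6 and 32.4, STE12 41.5 and 32.5, SAG1 134 and 70.9, SST2 62.2 and 41.2, NDT80 6.004 and 6.77, REC104 10.1 and 20.9, SPO20 1.79 and 3.02 and SPS4 5.096 and 3.44.

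Amino acid biosynthesis genes had 8 of 52 above (15.4%) and 6 below (11.5%), with a median of -0.01. GLN1, glutamine synthetase, LYS21 of lysine synthesis and HIS5 of histidine synthesis lay above, at 2130 in BC187 against 503 to 1847 in the other 5, 172 in BC187 against 104 to 144 in the other 5 and 284 in BC187 against 127 to 250.0 in the other 5. GCN4, the activator of these pathways, lay below, with 1071 in BC187, 1326 in YPS606, 1658 in DBVPG1788, 1666 in DBVPG6040, 1540 in Y9 and 1474 in YJM145. The arginine genes ARG8 and ARG3 were also below, at 23.3 in BC187 against 30.8 to 54.4 in the other 5 and 8.78 in BC187 against 10.97 to 34.3 in the other 5. Without YPS606, 10 members lay below. Among 18 multidrug resistance genes 4 lay above (22.2%) and 2 below, and RTA1, a membrane protein linked to aminocholesterol resistance, was 39.7 in BC187, 12.5 in YPS606, 29.95 in DBVPG1788, 12.5 in DBVPG6040, 22.3 in Y9 and 12.2 in YJM145. TPO3, a polyamine exporter, and QDR3, a drug exporter, were 64.96 in BC187 against 30.4 to 59.4 in the other 5 and 35.7 in BC187 against 25.4 to 35.5 in the other 5, and PDR3, a regulator, and RSB1, a sphingoid base transporter, were 8.098 in BC187 against 8.49 to 13.5 in the other 5 and 12.9 in BC187 against 13.3 to 28.98 in the other 5. Without DBVPG1788, 4 of these genes lay below, and 0 did with quantile normalisation, with strains centred or with the length trend removed. GLN1 had 1312 and 1572 in N17 and N44, LYS21 93.4 and 39.1, HIS5 187 and 333, GCN4 1319 and 1673, ARG8 59.6 and 59.9, ARG3 161 and 68.8, RTA1 176 and 127, TPO3 102 and 65.95, QDR3 30.5 and 33.4, PDR3 17.7 and 17.8 and RSB1 42.6 and 64.5.

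The medians of the remaining lists ran from -0.21 for cell wall proteins and remodelling to 0.05 for sulfate and methionine, apart from the 1 tested gene of subtelomeric repeats at -0.37. Between these extremes were flocculation at -0.16, peroxisomal fatty acid oxidation at -0.09, seripauperin and anaerobic genes at -0.09, thiamine and other B vitamins at -0.06, and zinc homeostasis at -0.05. Gluconeogenesis with the glyoxylate cycle had 0.02, aminoacyl-tRNA synthetases with translation factors 0.02, and glycerol genes with water channels 0.03. For cell wall proteins and remodelling BC187 had the lowest mean level of the 6 strains, 7.25 against 7.36 to 7.58 in the other 5. With each strain centred on its median BC187 ranked 4 of 6 for that list, so it was then not the lowest. The list median was -0.33 with quantile normalisation. With 1 strain left out that of flocculation ran from -0.29 without DBVPG1788 to -0.04 without YJM145, with -0.08 after the length trend was removed, and that of the gene of subtelomeric repeats was -0.22 after that step, -0.18 without YPS606 and -0.59 without DBVPG6040.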

How the data were processed

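Polyadenylated RNA (200 ng) was fragmented, copied with random primers, selected for inserts near 250 bp and amplified for 15 cycles, per the labels. The deposited values were treated as FPKM. The submitters' processing notes name cutadapt, TopHat, Cufflinks and build R64, with no versions, and the labels do not say in which unit the authors deposited the values. In the S. cerevisiae columns, 93.1% to 96.5% of low values times gene length were whole multiples of 1 step (tolerance 0.05), which gave the totals. Depth counts reads or fragments, which is not given in the sources used here.

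Values were analysed as log2(value + 1) for genes with a value in all 6 strains (10 lacked one) and a mean of at least 1 (48 lay below). Of 4325 genes, 4284 matched R64 locus tags. BC187 was tested against the other 5 strains with limma 3.58.1 in R 4.3.3, two-sided, with p-values adjusted by the Benjamini-Hochberg method and called under 0.05, after a test on simulated data. Members, gene lists and tests were chosen with earlier results of these data known. Named genes were the called gene, the genes with the widest gaps up to 12 per direction, and up to 3 members per direction in each list described. PHO84, VTC1, RPN4, HSP12, HSP30, INO1, RDL1 and RDL2 were named after their values were seen. The list for maltose use had no member tested. A member of a list that this rule names is not reported here.

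Promoter windows covered 300 to 51 bases before the start codon in R64. The 19 motifs, searched on both strands, were that of Gal4, TCCGNGGA (Pdr1), AGGGG (Msn2), CACGTG (Pho4), TGACTC (Gcn4), the heat shock element, CCAAT (Hap), TGAAACA (Ste12), GCCGCC (Ume6), GATAAG (Gat1 and Gln3), TGCACCC (Aft1), that of Cat8, TCGTATA (Upc2), GATGAG (PAC), AAAATTTT (RRPE), TGTGGC (Met31), CATGTGAA (Ino2), TTAGTAA (Yap1) and GGTGGCAAA (Rpn4). Alternatives were a pseudocount of 0.1, no minimum or a minimum of 10, quantile normalisation, median centring, chromosomes I and XI left out, each other strain left out, other variance models, and trends on length or GC content removed.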

Additional observations from a re-analysis of the deposited data

Results flagged for a closer look

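Among the other 5 strains, a single strain stood apart from the rest by Dixon's criterion in 5 of 61 sets examined, the 24 genes with the widest gaps and the mean levels of 37 lists. Chance flags about 1 in 20 groups, which gives 3.05 of 61. That rate assumes sets not chosen by their values, whereas the 24 genes were chosen by the range of these same strains. The lists are also not independent, so no conclusion is drawn from 5 against 3.05. OM45 was highest in YJM145, at 6.09 on the log2(value + 1) scale with 5.09 next. YBR053C was lowest in DBVPG1788, at 5.67 with 6.10 next. The mean level of mitochondrial ribosomal protein genes was highest in DBVPG6040, at 6.82 with 6.44 next, and that of thiamine and other B vitamin genes was highest there too, at 5.24 with 4.91 next. Purine and pyrimidine genes had their lowest mean level in YPS606, at 6.62 with 7.05 next. BC187 was not among the strains examined here.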

How the results depend on the processing

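Under every alternative run, 1 gene, YGR201C, passed the test. The count above the other 5 was 402, and it was 627 with the GC trend removed. Leaving out 1 strain gave 423 to 653 above (653 without DBVPG6040, 605 without DBVPG1788), 666 to 1068 below (1068 without YPS606), and 13 to 16 genes at least 1 log2 unit beyond the range (16 without DBVPG6040). FZF1 reversed to 0.0039 with quantile normalisation and to 0.12 without DBVPG6040 (-0.22 to 0.12 with 1 strain left out), and FAS1 to 0.11 with the length trend removed. The cause was not tested. The list medians for mating and for meiosis, 0.14 and 0.16, were -0.31 and -0.06 with a minimum mean of 10, which leaves few members. That of mating was also 0.08 with quantile normalisation, 0.08 without YPS606, 0.06 without Y9 and 0.01 without YJM145. That of meiosis was 0.07 with quantile normalisation, 0.096 without YJM145 and 0.31 with a pseudocount of 0.1. No paired analysis was possible because BC187 has 1 sample and the labels pair no strains. Values of low genes rest on few reads, about 263 implied reads in BC187 for POT1 and 94.9 for SPS4. The spread between cultures of BC187 was not measured.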
